A study of Mus musculus with 6 samples.

Results

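The hypoxia-program melanoma cells described here were chosen by their expression of 8 genes that respond to low oxygen: Vegfa, Bnip3, Slc2a1, Egln3, Ndrg1, Ankrd37, Pdk1, and Ero1l. For each cell of a tumor, log2(TPM + 1) was averaged over the 8 genes into a score, and the top 25% of cells by score within that tumor were selected. Of 602 cells, 507 were kept, namely those with TPM above 0 for over 1000 genes and with mitochondrially encoded genes below 10% of TPM, and 128 of the 507 were selected as hypoxia-program cells. They were set against the 255 cells in the bottom 50% of the same tumors, called low-score cells here, while 124 cells lay between. The scored genes chose the cells, so their values in these cells are a description, and each was tested only in cells chosen by the other 7.

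The cells came from single-cell RNA sequencing of subcutaneous flank tumors in C57BL/6 mice, all collected 15 days after injection and sorted for cells without CD45, a surface protein of immune cells. B16 tumors were grown from the melanoma line B16 and left untreated. B16PD1 tumors were grown from the same line in mice that received 200 μg of anti-PD1 antibody on days 5, 8, and 11. R499 tumors were grown from Res499, a line taken from a B16 tumor that had relapsed after radiation with anti-CTLA4, and were left untreated in this experiment. Each condition had 2 tumors, named B16007 and B16008, B16PD1000 and B16PD1002, and R499015 and R499016. The age of the mice is not given in the sources used here. Nor do they say whether a mouse's flanks were pooled, so the spread between tumors of a condition may hold technical variation. Each of the 602 cells had its own well position, with 0 positions named in 2 or more tumors and 0 cells with identical values. Cells of a tumor share that tumor, so the tumor was the replicate in every test.

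When oxygen is scarce, prolyl hydroxylases can no longer mark the alpha subunits of hypoxia-inducible factor (HIF) for binding by the von Hippel-Lindau protein, and the stabilized subunit pairs with ARNT to activate genes through short hypoxia response elements. Its targets raise glucose uptake and glycolysis, turn pyruvate away from mitochondria, remove mitochondria by mitophagy, buffer pH, remodel collagen, and call in blood vessels, and the hydroxylases themselves are among them. Implanted tumors often outgrow their vessels, and gradients of oxygen within them are well known.

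The 128 hypoxia-program cells were spread over all tumors because the rule takes a fixed share of each. Their numbers were 23 in B16007, 22 in B16008, 22 in B16PD1000, 22 in B16PD1002, 20 in R499015, and 19 in R499016. The number of cells therefore cannot vary with condition, and only the score itself and the genes outside it can. In B16007, the last cell inside the limit scored 5.25 and the next one outside 5.23. The same pair of values was 4.89 and 4.84 in B16008, and 5.23 and 5.23 in B16PD1000. In B16PD1002 it was 5.32 and 5.32, in R499015 4.66 and 4.66, and in R499016 5.11 and 4.96. The score thus had no gap at the limit, and the hypoxia-program cells are the upper end of a range of scores. Whether they form a separate cluster by other genes was not tested. Scores of the selected cells ran from 4.66 to 8.00 with a median of 5.94, while the median was 4.50 in the cells between and 2.86 in the low-score cells. All 8 scored genes were detected at TPM above 0 in 12 of the 128 cells, and at least 6 of them in 118 (92.2%). Among the low-score cells, 6 of 255 (2.35%) had at least 6 of the genes, and 138 (54.1%) had 3 or fewer. Together the 8 transcripts made up between 0.224% and 0.345% of TPM in the median hypoxia-program cell of a tumor, and between 0.0536% and 0.0857% in the median low-score cell.

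Among the scored genes, those for glucose handling were Slc2a1, the main glucose transporter GLUT1, and Pdk1, a kinase that inhibits pyruvate dehydrogenase. The mean log2(TPM + 1) of Slc2a1 was 7.29 ± 0.18 (SD, n = 6 tumors) in hypoxia-program cells and 3.78 ± 0.49 in low-score cells. It was detected in all 128 hypoxia-program cells and in 161 low-score cells. Pdk1 stood at 5.54 ± 0.44 and 2.18 ± 0.76 in the same order, with detection in 118 and 109 cells. Bnip3, a mitophagy receptor of the outer mitochondrial membrane, was the most abundant of the 8, at 10.58 ± 0.12 against 8.35 ± 0.44. Ero1l, the oxidase that keeps protein disulfide isomerase oxidized in the endoplasmic reticulum, stood at 8.32 ± 0.40 against 4.92 ± 0.46. Vegfa, the main attractant of new vessels, stood at 3.95 ± 0.41 against 0.92 ± 0.52 and was detected in 106 and 54 cells. Ndrg1, a stress-induced gene, had a mean of 6.30 ± 0.24 against 1.36 ± 0.58. Ankrd37, a small ankyrin repeat protein, had the largest ratio of detection between the groups, being found in 89 hypoxia-program cells but in 12 of the 255 low-score cells. Egln3, a HIF prolyl hydroxylase, was the sparsest, found in 23 and 12 cells, and its tumor means overlapped between the groups (0.78 ± 0.58 against 0.22 ± 0.19).

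Melanocyte transcripts were present in all of the selected cells. Pmel, a pigment granule protein, was detected in 128 of 128 hypoxia-program cells and in 255 of 255 low-score cells, and all of them had at least 2 melanocyte markers. The summed TPM of 19 melanocyte lineage genes, of which Ednrb alone was at 0, averaged 19136 in hypoxia-program cells and 20003 in low-score cells. Markers of T and NK cells, endothelium, fibroblasts, and pericytes came up as 2 or more in 0 of the 128 cells, which allows a share of up to 2.34%. Cd3d, Cd8a, Nkg7, Gzmb, Cdh5, Kdr, Tek, Col1a1, Pdgfra, Rgs5, the 4 keratinocyte markers, and the 5 erythroid markers were at 0 in every kept cell. Macrophage markers were the exception. At least 2 of 10 were detected in 7 hypoxia-program cells (5.47%) and in 3 low-score cells (1.18%), with Cd68 the most frequent, in 29 and 34 cells. Summed macrophage TPM averaged 900 in the hypoxia-program cells of B16PD1002 against 33.0 in its low-score cells. In the other tumors it lay between 13.3 and 111 in hypoxia-program cells and between 17.1 and 56.1 in low-score cells. Leaving out the 15 cells with 2 or more markers of another type, and choosing again among the remaining 492, gave 102 genes higher and 28 lower in hypoxia-program cells, next to 111 and 28 with all cells. Of the 111 and 28, 94 and 24 were among them.

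Hypoxia-program cells also had more genes detected than low-score cells. The median was 4648 against 2932.5 genes in B16007, 3862.5 against 3039 in B16008, and 4668 against 3275 in B16PD1000. It was 4059.5 against 3315.5 in B16PD1002, 4143 against 2537 in R499015, and 4367 against 2790 in R499016. The difference of medians averaged 1310 ± 421 genes (SD, n = 6 tumors) and was positive in 6 of 6 tumors (exact sign-flip permutation test, two-sided, p = 0.03125, the smallest this design allows). Over the cells of a tumor, which share its library preparation, score and genes detected had a Pearson r between 0.307 and 0.584. The share of TPM from mitochondrially encoded genes was higher by 0.857 ± 0.677 percentage points (SD, n = 6), again in 6 of 6 tumors (same exact test, p = 0.03125). Chosen instead on the score after regression on genes detected, the cells differed by 295 genes (p = 0.156) and by 0.141 percentage points (p = 0.75, same exact test). Tests of hypoxia-program against low-score cells below therefore held the number of genes detected constant within a tumor, unless stated. A difference is on the scale of log2(TPM + 1), which understates the change of genes with low TPM.

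**Figure D1:**
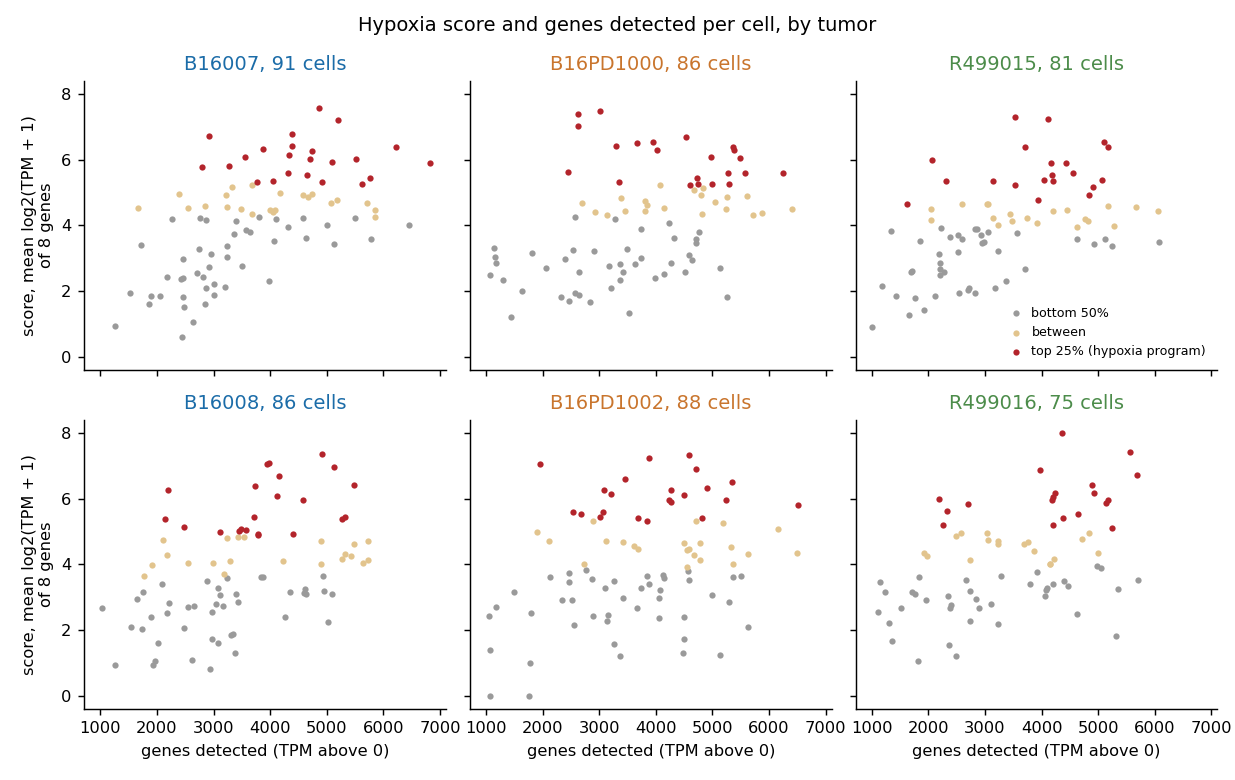
Score of each kept cell (mean log2(TPM + 1) of the 8 scored genes, y axis) against its number of genes detected (x axis). Each panel is a tumor, with hypoxia-program cells, cells between, and low-score cells in different colors. Each point is a cell. Within every tumor the score is continuous, and median scores of hypoxia-program cells lie between 5.44 and 6.07.

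Each scored gene could be tested in cells that it had not chosen, by selecting on the other 7 genes. Of the 8 genes, 7 were then higher in the selected cells in limma, a linear model across 9509 genes, with Benjamini-Hochberg adjustment. Ndrg1 had the largest difference, 2.82 (adjusted p = 2.59e-05, higher in 6 of 6 tumors), followed by Ankrd37 with 2.65 (1.17e-05, 6 of 6) and Ero1l with 2.52 (1.68e-05, 6 of 6). Slc2a1 differed by 2.15 (0.000571, 6 of 6) and Bnip3 by 1.91 (1.33e-06, 6 of 6). The smallest differences past the threshold of 0.05 were those of Pdk1, 1.76 (0.00575, 6 of 6), and Vegfa, 1.58 (0.00753, 6 of 6). Egln3 did not pass, with a difference of 0.44 (0.237, 5 of 6) that was 0.22 without R499016. Each of these tests has its own choice of cells. Vegfa was the only 1 of the 7 to miss the threshold in any of 12 other settings, at an adjusted p of 0.0559 without B16PD1000, the lowest being 2.01e-05.

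The scored genes also varied together from cell to cell within a tumor. Given genes detected, the Pearson r of a pair, averaged over the 6 tumors, was above 0 for all 28 pairs, with a median of 0.176. The highest was that of Bnip3 with Ero1l, 0.399, and the lowest that of Egln3 with Ndrg1, 0.0281. These values run over the 507 kept cells, which share tumors and a TPM scale fixed to the same total, and describe these cells only.

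Across the transcriptome, 9508 of the 25215 genes in the table had TPM above 0 in at least 5% of kept cells and could be tested, the scored genes left aside. In limma, 111 genes (1.17% of those tested) were higher in hypoxia-program cells and 28 (0.294%) were lower at an adjusted p under 0.05. Of these, 105 and 26 had the same sign in 6 of 6 tumors. At an unadjusted p under 0.05 there were 1245 genes, and the median difference of all tested genes was -0.02. Without the term for genes detected the split was 2868 higher (30.2% of those tested) and 9 lower and the median of all genes moved to 0.38. With each hypoxia-program cell matched to a low-score cell of like genes detected it was 176 and 17, including 110 of the 111 and 13 of the 28. Selection on the score after regression on genes detected gave 138 and 58, including 99 of the 111 and 20 of the 28. Without B16PD1002 the counts were 68 and 17, and without B16PD1000 81 and 16.

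The largest increase was that of Selenbp1 (ENSMUSG00000068874, chromosome 3 from 94933056 to 94944758, plus strand, GRCm38), a selenium-binding protein with methanethiol oxidase activity. Over the 6 tumors its mean log2(TPM + 1) in hypoxia-program cells had a lowest value of 6.98, a median of 7.27, and a highest of 7.61. In low-score cells the values were 1.74, 3.27, and 3.97, so that every tumor's hypoxia-program cells lay far above all low-score means. Allowing for genes detected, the difference was 3.49 with a standard error of 0.33 (adjusted p = 1.11e-06, 6 of 6 tumors). Hilpda, Car9, and Ier3 came next. Hilpda, a lipid droplet protein that inhibits lipolysis, ran from 6.82 through a median of 7.82 to 8.18 in hypoxia-program cells and from 3.12 through 4.41 to 5.41 in low-score cells, and differed by 2.60 (standard error 0.36, 0.000216, 6 of 6). Car9, the carbonic anhydrase that buffers pH at the cell surface, ran from 8.70 through 9.11 to 9.58 and from 4.84 through 6.61 to 7.04, and differed by 2.55 (standard error 0.24, 1.11e-06, 6 of 6). Ier3, a stress-induced survival gene, ran from 5.66 through 6.74 to 7.81 and from 2.93 through 3.34 to 3.96, and differed by 2.48 (standard error 0.37, 0.000387, 6 of 6). None of the 4 genes overlapped between hypoxia-program and low-score tumor means. The other 6 of the 10 largest increases were those of Gbe1, P4ha2, Prelid2, Ppme1, Pgf, and Plekha2, between 2.05 and 2.23, and likewise without overlap. Tumor means, here and below, are not adjusted for genes detected. How many of all tested genes have means without overlap was not counted, so a lack of overlap only describes the genes named. Ppme1 is a methylesterase of protein phosphatase 2A and differed by 2.09 (0.000778, 6 of 6). Of the 10 genes, 9 passed in all of 23 other settings, and Prelid2 passed in 22, with an adjusted p of up to 0.123.

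Known HIF targets were frequent among the genes that rose. Of 52 listed targets outside the score, 46 were detected, 40 could be tested, 19 rose, and 0 fell, where 1.17% of all genes rose. Their median difference was 0.97, against -0.02 for all tested genes. The median was above 0 in every tumor, from 0.55 in B16008 to 1.32 in B16PD1002, with 32 to 38 of the 40 genes above 0. When the term for genes detected was dropped, 34 of the 40 passed, where 30.2% of all genes rose. A target can pass the filter through its level in the hypoxia-program cells alone, so these counts describe the tested genes and not the list as a whole. The 6 targets listed at 0 in both groups were Edn1, Lox, Nos2, Pdgfb, Ppp1r3c, and Stc2.

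Collagen is modified in the endoplasmic reticulum by prolyl 4-hydroxylases, and the alpha subunit genes P4ha1 and P4ha2 rose. P4ha2 ran from 3.20 through a median of 4.13 to 5.43 in hypoxia-program cells and from 0.77 through 1.39 to 2.04 in low-score cells, a difference of 2.18 (adjusted p = 0.000755, 6 of 6 tumors). P4ha1 was more abundant and differed less, by 1.27 (0.0247, 6 of 6). The lysyl hydroxylase gene Plod2, named after its value was seen, did not pass, with a difference of 1.26 (0.0818, 6 of 6). Of the targets in mitochondria, Fam162a, a protein tied to cell death in hypoxia, was the most abundant. It ran from 10.34 through 10.89 to 11.19 in hypoxia-program cells and from 8.05 through 8.53 to 9.03 in low-score cells, a difference of 1.69 (8.7e-06, 6 of 6). Bnip3l, the mitophagy receptor NIX and a paralog of Bnip3, differed by 1.72 (0.000218, 6 of 6), and Higd1a, a small protein of the inner membrane that associates with the respiratory chain, by 1.51 (0.000242, 6 of 6). The adenylate kinase gene Ak4 differed by 1.45 (0.00844, 6 of 6). All 4 mitochondrial proteins were thus encoded by genes whose hypoxia-program and low-score tumor means stayed apart.

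Among the targets that rose, Jmjd6, Kdm3a, and Egln1 encode oxygen-dependent enzymes. Jmjd6, a lysyl hydroxylase of the Jumonji family, ran from 4.95 through a median of 6.07 to 6.23 in hypoxia-program cells and from 2.40 through 2.80 to 3.56 in low-score cells, a difference of 2.03 (adjusted p = 0.000729, 6 of 6 tumors). The histone demethylase gene Kdm3a differed by 1.51 (0.00693, 6 of 6). Egln1, which encodes the main HIF prolyl hydroxylase, differed by 1.12 (0.0227, 6 of 6) and was detected in 71 of the 128 hypoxia-program cells and 38 of the 255 low-score cells. Transcription factors among the targets were Rora, a nuclear receptor, with a difference of 1.27 (0.00748, 6 of 6), and Mxi1, an antagonist of Myc, with 1.001 (0.0247, 6 of 6). Of secreted products, the vasodilator peptide gene Adm differed by 1.39 (0.00936, 6 of 6) and the glycoprotein hormone gene Stc1 by 1.37 (0.000773, 6 of 6). Both were sparse, Adm being detected in 63 and 50 cells and Stc1 in 58 and 30. Anxa2, a membrane-binding protein, was by contrast detected nearly throughout, in 127 and 230 cells, and differed by 1.61 (2.59e-05, 6 of 6).

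Targets of glycogen and lactate metabolism rose as well. Gbe1 (chromosome 16 from 70313949 to 70569716, plus strand, GRCm38), the glycogen branching enzyme, ran from 5.85 through a median of 6.51 to 6.80 in hypoxia-program cells and from 2.77 through 3.47 to 4.20 in low-score cells, a difference of 2.23 (adjusted p = 0.000242, 6 of 6 tumors). Gys1, the muscle-type glycogen synthase, differed by 1.99 (0.000756, 6 of 6). The genes of the enzymes that lengthen and branch glycogen therefore both rose. Slc16a3, the lactate exporter MCT4, differed by 1.67 (0.0141, 6 of 6), but its tumor means overlapped, the highest low-score mean being 3.74 and the lowest hypoxia-program mean 3.09, and its difference in single tumors came down to 0.01. Across 23 other settings, 12 of the 19 targets that rose passed in every setting.

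Some well-known targets gave no call. Hmox1, heme oxygenase, differed by 0.85 (adjusted p = 0.182, 6 of 6 tumors) and Insig2, a regulator of sterol synthesis, by 0.94 (0.167, 6 of 6). Mif, a cytokine gene of high level throughout, differed by 0.30 (0.0775, 6 of 6). Ddit4, an inhibitor of mTORC1, was found in 19 of the 128 hypoxia-program cells and 5 of the 255 low-score cells and differed by 0.47 (0.138, 5 of 6). Slc2a3, the glucose transporter GLUT3, differed by 0.23 (0.668, 4 of 6). These 5 genes were chosen after their values were seen, and 21 of the 40 tested targets in all did not pass.

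Glycolysis genes rose at nearly every step. Of 20 glycolytic genes, all of them tested, 15 rose and 0 fell, where 1.17% of all genes rose, and 19 rose without the term for genes detected, where 30.2% of all genes did. Their median difference was 0.66, against -0.02 for all tested genes, and lay between 0.51 in B16007 and 0.86 in B16008 by tumor. Hk2, the hexokinase that binds mitochondria and traps glucose in the cell, had tumor means of at least 5.56 in hypoxia-program cells and of at most 4.65 in low-score cells, a difference of 1.72 (adjusted p = 0.00314, 6 of 6 tumors). Hk1 differed by 1.10 (0.0207, 6 of 6). Gpi1, which turns glucose 6-phosphate into fructose 6-phosphate, differed by 0.68 (0.0131, 6 of 6). Of the phosphofructokinases, which commit sugar to glycolysis, Pfkl differed by 1.42 (0.00925, 6 of 6). Pfkp ran from 7.22 through a median of 7.68 to 8.10 in hypoxia-program cells and from 5.88 through 6.31 to 6.94 in low-score cells, a difference of 1.15 (0.0092, 6 of 6). Each of these 5 genes was separated without overlap between hypoxia-program and low-score tumor means.

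Genes of the lower part of the pathway rose as well, sparse and abundant ones. Gapdh, the dehydrogenase of the pathway, ran from 13.75 through a median of 14.03 to 14.12 in hypoxia-program cells and from 13.15 through 13.45 to 13.56 in low-score cells. Its difference was 0.64 with a standard error of 0.06 (adjusted p = 1.11e-06, 6 of 6 tumors). Ldha, which turns pyruvate into lactate, ran from 12.47 through 12.59 to 12.66 and from 11.88 through 12.05 to 12.08, a difference of 0.58 (0.00023, 6 of 6). The aldolase gene Aldoa differed by 0.63 (5.67e-05, 6 of 6) and its sparser paralog Aldoc by 1.38 (0.0169, 6 of 6). Tpi1, triose phosphate isomerase, differed by 0.65 (0.00429, 6 of 6) and Pgk1, phosphoglycerate kinase, by 0.64 (0.000922, 6 of 6). The enolase genes Eno1 and Eno2 differed by 0.40 (0.0188, 6 of 6) and 0.99 (0.00867, 6 of 6). The pyruvate kinase gene Pkm differed by 0.64 (0.0118, 6 of 6), with overlap of the tumor means, and the phosphoglucomutase gene Pgm2 by 1.001 (0.0258, 6 of 6).

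The 5 glycolytic genes without a call were named after their values were seen. Pgam1, phosphoglycerate mutase, came close, with a difference of 0.51 (adjusted p = 0.0516, 6 of 6 tumors), while Pfkm differed by 0.67 (0.135, 6 of 6), the lactate transporter gene Slc16a1 by 0.67 (0.365, 4 of 6), and Pgm1 by 0.43 (0.632, 4 of 6). Ldhb, whose subunit favors the use of lactate, was the only gene of the 20 below 0, with a difference of -0.32 (0.458, 0 of 6 higher). The count of 15 was 8 without B16PD1002, 9 against the bottom 25% of cells, and 5 with limma without a trend of variance on level, and 1 of the 15, Hk2, passed in every setting. Differences of the 15 genes stayed above 0 throughout these settings.

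**Figure D2:**
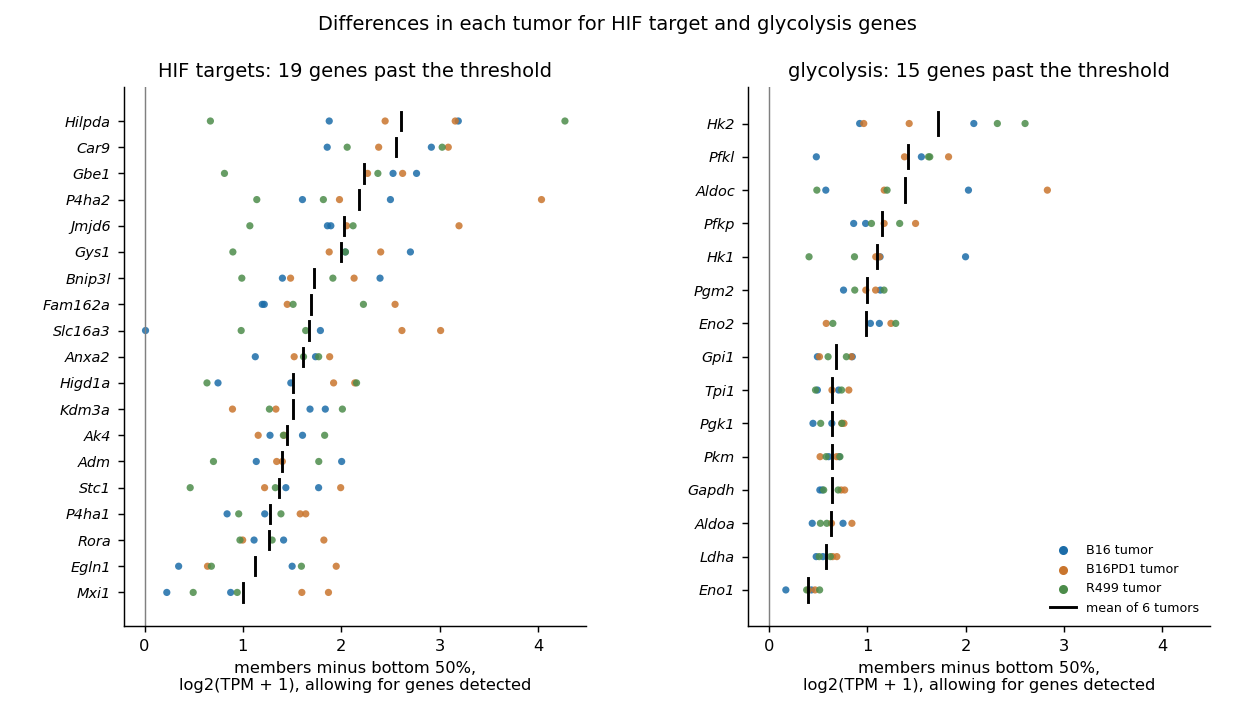
Difference of hypoxia-program minus low-score cells in log2(TPM + 1), allowing for genes detected (x axis). The y axis lists the HIF targets and glycolytic genes that rose, in separate panels. Each point is a tumor, colored by condition, and black marks are means of the 6 tumors. The genes were picked as higher over these tumors. Values of single tumors come down to 0.01, for Slc16a3.

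The cells between, which entered no test, gave a further level for each of the 34 HIF targets and glycolytic genes that rose. In 182 of 204 pairs of gene and tumor, the mean of the cells between lay above that of the low-score cells and below that of the hypoxia-program cells. For 17 genes this order held in 6 tumors, for 13 in 5, for 3 in 4, and for Slc16a3 in 3. Car9 had means of 6.31, 7.81, and 9.09 from low-score cells through cells between to hypoxia-program cells, and Fam162a 8.57, 9.90, and 10.85. The score and the number of genes detected were positively correlated in every tumor, and these means are not adjusted for genes detected. The part of genes detected in the order was not tested. The 34 genes were picked as higher in hypoxia-program cells, whose means lay above those of low-score cells in all 204 pairs. A level in the middle was thus partly given in advance. The share of all tested genes with this order was not computed, so the counts only describe the 34 genes.

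Among listed components of the HIF pathway, a list without the targets Egln1 and Egln3, Vhl alone rose. Of 16 listed genes, 13 were tested, 1 rose and 0 fell, and their median difference was -0.01. All genes rose at a share of 1.17%, or 30.2% without the term for genes detected, where 5 of the 13 did. Vhl, which encodes the von Hippel-Lindau protein that directs HIF alpha subunits to degradation, ran from 4.13 through a median of 4.83 to 5.25 in hypoxia-program cells and from 1.81 through 2.06 to 2.90 in low-score cells. The difference was 2.02 (standard error 0.32, adjusted p = 0.000756, 6 of 6 tumors), and it passed in all of 23 other settings. Genes of the other parts of its ubiquitin ligase, chosen after their values were seen, did not follow: Elob differed by -0.55 (0.313, 2 of 6 higher), Cul2 by -0.29 (0.785, 2 of 6), and Rbx1 by -0.63 (0.318, 2 of 6). Also chosen after their values were seen were Hif1a, Arnt, and Epas1. Hif1a, the oxygen-regulated subunit, was detected in 111 of the 128 hypoxia-program cells and differed by 0.51 (0.527, 4 of 6), and its partner Arnt by 0.74 (0.327, 5 of 6). Epas1, which encodes HIF-2 alpha, was detected in 20 cells and differed by -0.02 (0.972, 2 of 6). HIF activity is set mainly by protein stability, which transcript levels do not measure.

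Among 11 genes of VEGF family ligands, angiopoietins, and their receptors other than Vegfa, 7 were tested, 1 rose and 0 fell, where 1.17% of all genes rose. Pgf, placental growth factor, a ligand of VEGF receptor 1, ran from 1.91 through a median of 3.28 to 3.71 in hypoxia-program cells and from 0.41 through 0.80 to 1.24 in low-score cells, a difference of 2.06 (adjusted p = 0.000242, 6 of 6 tumors). It was detected in 60 of the 128 hypoxia-program cells and in 36 of the 255 low-score cells. The most abundant other ligands gave no call, Angpt2 at -0.36 (0.649, 2 of 6 higher) and Vegfb at -0.26 (0.689, 1 of 6). The ligands Vegfa, by selection on the other scored genes, and Pgf, among all genes, were thus higher in hypoxia-program cells, while the receptor Kdr was at 0 in every kept cell and the median of the 7 genes was -0.19 (-0.32 relative to all genes without the term for genes detected).

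Because the members rose together, their promoters were searched for the core of the hypoxia response element. The letters searched were ACGTG and GCGTG on both strands, which read CACGT and CACGC on the other strand, in RefSeq promoters on GRCm38.p6 of 300 bases each. A CACGTG counts as 2 overlapping matches. Of the 34 HIF targets and glycolytic genes that rose, 32 matched a promoter, and 37 of their 48 promoters (77.1%) held at least 1 match. Among all 32851 promoters the share was 43.8%, and among the 9627 promoters of tested genes it was 64.3%. For all genes that rose the share was 87 of 127 promoters (68.5%) and for those that fell 20 of 31 (64.5%). A match is a string of letters and not evidence of binding. The sequences of Bnip3 (chr7:138909457-138909756, minus strand), Ldha (chr7:46845554-46845853, plus strand), and Fam162a (chr16:36071512-36071811, minus strand) are shown for their many matches, 5, 7, and 6, that of Ankrd37 (chr8:45999801-46000100, minus strand, 4 matches) as the scored gene with the largest ratio of detection, and that of Selenbp1 (chr3:94932833-94933132, plus strand, 3 matches) as the largest increase. Each is written 5′ to 3′ on the strand of its gene, with matches in capitals.
Bnip3: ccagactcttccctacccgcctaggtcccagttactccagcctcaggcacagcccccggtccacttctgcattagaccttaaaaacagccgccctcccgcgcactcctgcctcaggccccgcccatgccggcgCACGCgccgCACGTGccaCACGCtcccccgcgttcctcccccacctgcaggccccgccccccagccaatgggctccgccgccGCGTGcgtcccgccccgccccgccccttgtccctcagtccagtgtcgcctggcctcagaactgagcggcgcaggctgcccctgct
Ldha: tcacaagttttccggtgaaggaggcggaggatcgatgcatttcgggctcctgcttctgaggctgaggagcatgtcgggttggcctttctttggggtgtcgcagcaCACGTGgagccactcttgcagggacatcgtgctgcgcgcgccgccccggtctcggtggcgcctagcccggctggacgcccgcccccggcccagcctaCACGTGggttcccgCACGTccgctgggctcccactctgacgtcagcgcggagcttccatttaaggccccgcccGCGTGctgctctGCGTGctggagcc
Fam162a: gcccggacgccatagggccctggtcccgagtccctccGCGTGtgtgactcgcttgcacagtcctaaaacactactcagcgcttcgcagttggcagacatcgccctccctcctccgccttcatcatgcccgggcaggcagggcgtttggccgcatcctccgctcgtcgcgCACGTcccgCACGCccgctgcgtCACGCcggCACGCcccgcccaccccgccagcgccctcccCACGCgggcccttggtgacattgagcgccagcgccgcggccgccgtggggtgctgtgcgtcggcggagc
Ankrd37: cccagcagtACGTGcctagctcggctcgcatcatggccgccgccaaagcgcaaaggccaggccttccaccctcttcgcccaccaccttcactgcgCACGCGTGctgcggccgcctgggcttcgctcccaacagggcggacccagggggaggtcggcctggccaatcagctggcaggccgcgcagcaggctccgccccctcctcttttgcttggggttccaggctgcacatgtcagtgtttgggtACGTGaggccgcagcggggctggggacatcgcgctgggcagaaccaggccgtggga
Selenbp1: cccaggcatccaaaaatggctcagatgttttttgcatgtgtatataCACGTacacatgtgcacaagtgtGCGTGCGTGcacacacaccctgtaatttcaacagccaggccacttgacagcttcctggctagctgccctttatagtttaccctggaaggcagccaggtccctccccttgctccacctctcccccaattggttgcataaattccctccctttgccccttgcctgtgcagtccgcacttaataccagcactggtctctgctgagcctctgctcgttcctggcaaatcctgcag

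Stress and early response genes rose in part. Of 20 immediate early genes, 17 were tested, 3 rose and 0 fell, where 1.17% of all genes rose, all 17 had a difference above 0, and the median was 0.57. Without the term for genes detected, where 30.2% of all genes rose, 15 of the 17 did. Besides Ier3 these were Atf3, a stress-induced transcription factor that the list of ATF4 response genes holds as well, and Klf6, a zinc finger factor. Atf3 ran from 4.50 through a median of 5.25 to 6.03 in hypoxia-program cells and from 2.78 through 2.92 to 3.31 in low-score cells, a difference of 1.98 (adjusted p = 0.00076, 6 of 6 tumors). Klf6 differed by 1.83 (0.000755, 6 of 6). Fos, the most abundant of the genes without a call, differed by 0.64 (0.321, 6 of 6). Of 28 ATF4 response genes, which serve amino acid supply, 26 were tested and Atf3 alone rose, with 0 lower and a median of 0.39, while 19 of the 26 rose without the term. Atf4 itself differed by 0.44 (0.339, 5 of 6), Slc3a2, a subunit of amino acid exchangers, by 0.50 (0.296, 6 of 6), and Asns, asparagine synthetase, by 0.28 (0.639, 4 of 6).

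The cell cycle inhibitor Cdkn1a (p21) was the only 1 of 12 tested p53 targets to rise, where 1.17% of all genes rose, with 0 lower and a median of 0.39. Of the 12, 7 rose without the term for genes detected, where 30.2% of all genes did. It ran from 5.65 through a median of 6.05 to 7.57 in hypoxia-program cells and from 2.83 through 3.35 to 4.82 in low-score cells, a difference of 1.98 (adjusted p = 0.00137, 6 of 6 tumors). Bax, which permeabilizes mitochondria in apoptosis, differed by 0.52 (0.546, 4 of 6), and Ccng1 by -0.35 (0.7, 2 of 6). Mdm2, the p53 ubiquitin ligase, was named after its value was seen and missed the threshold, with a difference of 1.28 (0.0501, 6 of 6). Of 21 tested ER stress genes, 0 passed limma in either direction, 4 had an unadjusted p under 0.05, and the median was -0.22, or -0.04 relative to all genes without the term for genes detected, where 3 of the 21 rose. The chaperone gene Hspa5 (BiP) differed by -0.45 (0.32, 2 of 6 higher), Calr by -0.35 (0.546, 1 of 6), and Canx by -0.02 (0.975, 4 of 6).

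Genes of mitochondria and of the translation machinery gave few calls with genes detected held constant, where 1.17% of all genes rose, and counts without that term are to be read beside 30.2% of all genes. Of 18 mitophagy and autophagy genes other than Bnip3 and Bnip3l, 16 were tested, and Gabarapl1, an autophagosome membrane protein, alone rose, by 1.44 (adjusted p = 0.0227, 6 of 6 tumors), with 0 lower and a median of 0.03, and 7 rose without the term. Gabarapl1 passed in 14 of 23 other settings. Sqstm1, the autophagy receptor p62, differed by 0.67 (0.068, 6 of 6), Gabarap by 0.13 (0.884, 4 of 6), and Map1lc3b by -0.23 (0.736, 1 of 6). All 13 mitochondrially encoded genes for proteins were tested, 0 passed limma, 4 had an unadjusted p under 0.05, and the median was 0.09. Of the 13, 10 rose without the term for genes detected. The most abundant were mt-Atp6 with a difference of 0.08 (0.772, 3 of 6), mt-Co3 with -0.01 (0.981, 3 of 6), and mt-Co2 with 0.10 (0.785, 3 of 6), mt-Co3 turning to 0.33 without the term for genes detected.

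Of 74 nuclear genes of oxidative phosphorylation, 0 rose and 1 fell, where 1.17% and 0.294% of all genes did. Without the term for genes detected 42 of the 74 rose and 0 fell, where 30.2% of all genes rose. Their median was -0.16, near 0 (0.00 relative to all genes) after regression of the score on genes detected and 0.28 above that of all genes without the term. The gene that fell was Ndufa5, a subunit of complex I, with a difference of -1.21 (adjusted p = 0.0108, 0 of 6 tumors higher), but its tumor means overlapped and it differed by 0.33 without the term. Atp5b, Uqcr10, and Uqcrq were the most abundant and differed by -0.06 (0.877, 1 of 6 higher), -0.19 (0.536, 2 of 6), and -0.07 (0.886, 3 of 6), Uqcrq turning to 0.76 without the term. Of 67 cytosolic ribosomal protein genes, Rps27 alone rose, by 0.58 (0.0195, 6 of 6), with 0 lower and a median of 0.05, and 38 of the 67 rose without the term. Rps27 passed in 14 of 23 other settings. Rpl32, Rps18, and Rpl41, the most abundant, differed by 0.13 (0.435, 5 of 6), 0.09 (0.708, 5 of 6), and -0.11 (0.621, 1 of 6).

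The largest decrease was that of Cks2, a subunit of cyclin-dependent kinases, which ran from 2.58 through a median of 3.34 to 4.05 in hypoxia-program cells and from 3.32 through 4.06 to 5.04 in low-score cells. These tumor means overlapped, and allowing for genes detected it differed by -2.09 (standard error 0.31, adjusted p = 0.000387, 0 of 6 tumors higher). Its paralog Cks1b differed by -1.84 (0.00215, 0 of 6), Pmf1, a kinetochore protein, by -1.74 (0.00255, 0 of 6), and Stmn1, which destabilizes microtubules, by -1.33 (0.00688, 0 of 6). The others of the 10 largest decreases were Psmb10, Rfc3, Smdt1, Selenoh, Zfp637, and Dut, between -1.55 and -1.35, of which Rfc3 loads the replication clamp and Dut keeps uracil out of DNA. All 10 overlapped between hypoxia-program and low-score tumor means before genes detected was held constant. The mean levels without that adjustment lay closer together than these differences. In hypoxia-program and low-score cells they were 5.36 and 6.10 for Cks1b, 4.40 and 4.75 for Pmf1, and 6.19 and 6.64 for Stmn1. The closest were Zfp637, at 4.88 and 4.89, and Smdt1, at 6.94 and 7.06. Cks2 alone passed in all of 23 other settings.

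Of 54 G2/M genes, 0 rose and 3 fell, where 0.294% of all genes fell, namely Cks2, Cks1b, and Gtse1, a microtubule-binding protein with a difference of -1.17 (adjusted p = 0.0094, 0 of 6 tumors higher). Without the term for genes detected, where 30.2% of all genes rose and 0.0947% fell, 3 rose and 3 fell. The median was -0.34, which became -0.38 relative to all genes without the term. The most abundant G2/M genes other than Cks1b gave no call, Jpt1 at -0.89 (0.227, 2 of 6), Tubb4b at -0.20 (0.822, 3 of 6), and Anp32e at 0.10 (0.938, 3 of 6). Of 43 S phase genes, 0 passed limma while 16 had an unadjusted p under 0.05, all of them lower. Their median was -0.43, or -0.47 relative to all genes without the term, where 1 rose. Pcna, the replication clamp, differed by -0.82 (0.133, 0 of 6 higher), and the ribonucleotide reductase genes Rrm1 and Rrm2 by -0.77 (0.29, 1 of 6) and -0.89 (0.173, 0 of 6). After regression of the score on genes detected, 4 S phase and 5 G2/M genes fell, where 0.61% of all genes did. With the S phase and G2/M means as terms, 70 genes rose and 11 fell over the whole table, 68 and 8 of them among the 111 and 28.

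Pigment cell and immune genes gave almost no calls with genes detected held constant. Without the term 2 of 18 melanocyte lineage genes, 2 of 32 interferon-stimulated genes, 5 of 15 genes of MHC class I presentation, and 1 of 2 macrophage markers rose, where 30.2% of all genes did. Of 20 melanocyte lineage genes, 18 were tested and 0 passed limma, with 5 at an unadjusted p under 0.05, all of them lower. Of the 18, 14 had a difference below 0 and 4 above 0. Their median was -0.34 (-0.31 relative to all genes without the term for genes detected). Dct and Tyrp1, enzymes of melanin synthesis, differed by -0.03 (adjusted p = 0.929, 3 of 6 tumors higher) and 0.13 (0.728, 5 of 6), and Pmel by -0.18 (0.471, 1 of 6). Of 32 tested interferon-stimulated genes, 0 passed, 2 had an unadjusted p under 0.05, and the median was -0.17. It was 0.00 with matched cells, or -0.09 relative to all genes. Ifi27 differed by 0.03 (0.976, 5 of 6), Lgals3bp by -0.25 (0.804, 2 of 6), turning to 1.01 without the term, and Bst2 by -0.78 (0.36, 2 of 6). Of 15 tested genes of MHC class I presentation, the immunoproteasome subunit Psmb10 alone fell, by 1.55 on the log2 scale (0.0158, 0 of 6), where 0.294% of all genes fell, and the median was 0.00. Not adjusted for genes detected, Psmb10 had mean levels of 2.44 in hypoxia-program cells and 2.86 in low-score cells. B2m, the light chain of MHC class I, differed by 0.04 (0.948, 4 of 6). Of 10 macrophage markers, 2 were tested, Cd68 at 0.40 (0.553, 4 of 6) and Fcer1g at -0.07 (0.902, 3 of 6).

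**Figure D3:**
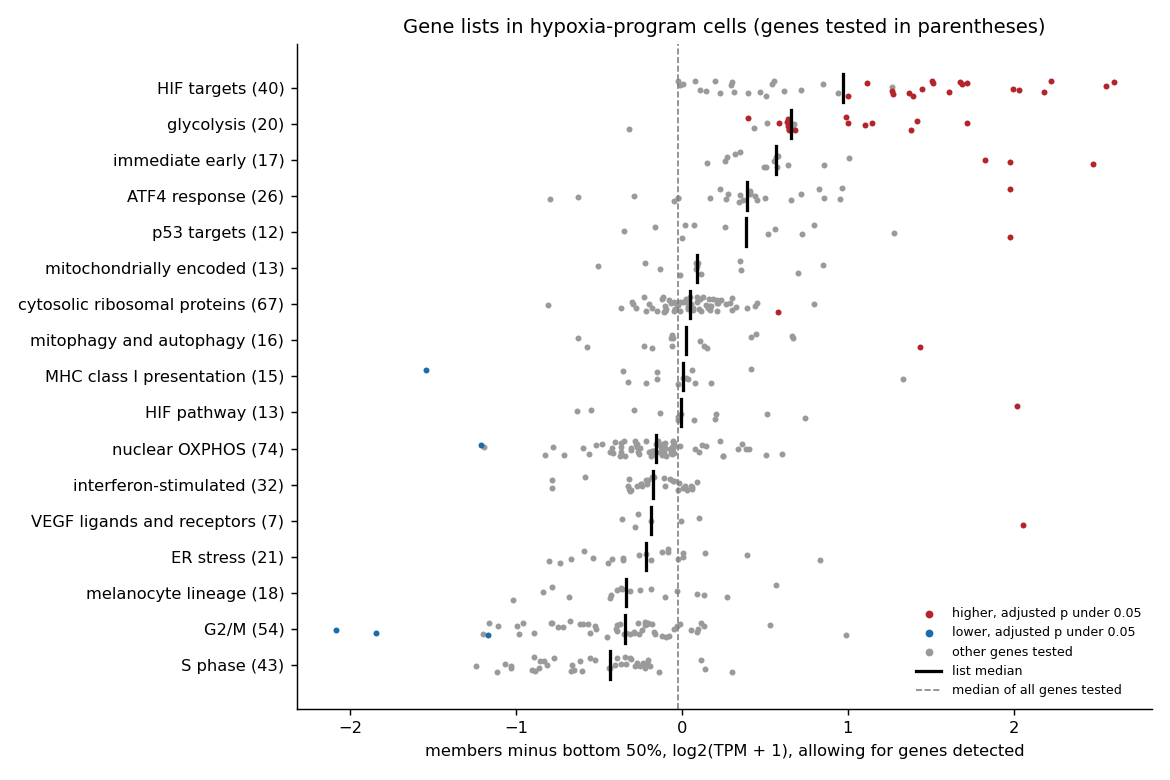
Difference of hypoxia-program minus low-score cells in log2(TPM + 1), allowing for genes detected (x axis), for each tested gene of the lists (y axis), averaged over 6 tumors. Each point is a gene and vertical marks are list medians. HIF targets (median 0.97) and glycolytic genes (0.66) lie furthest to the right of all tested genes (-0.02), and S phase (-0.43) furthest to the left.

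Whether the program differed between conditions was asked in 3 ways. The mean score over all kept cells was 4.13 in B16007 and 3.79 in B16008, 4.07 in B16PD1000 and 4.01 in B16PD1002, and 3.93 in R499015 and 4.09 in R499016. By condition the mean was 3.96 for B16 with an SD of 0.24 over 2 tumors, 4.04 ± 0.04 for B16PD1, and 4.01 ± 0.12 for R499. The differences were 0.08 for B16PD1 minus B16, 0.05 for R499 minus B16, and -0.03 for R499 minus B16PD1, each less than the distance between the B16 tumors (exact permutation test, two-sided, p = 1 in all 3 pairs, with 0.333 the smallest p that 2 against 2 tumors allow). Their signs turned with single tumors left out, as without B16008, where B16PD1 minus B16 was -0.09 and R499 minus B16 -0.12.

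No gene gave a call when the differences between hypoxia-program and low-score cells were compared between conditions. With limma on the 6 differences of each gene, 0 of 9508 genes passed in B16PD1 minus B16, in R499 minus B16, and in R499 minus B16PD1, while 458, 547, and 463 had an unadjusted p under 0.05. Of the 34 HIF targets and glycolytic genes that rose, 2 had an unadjusted p under 0.05 in B16PD1 minus B16 and 0 in either other contrast, and the lowest adjusted p was 0.996, 0.919, and 0.990. In R499 minus B16 the genes with the smallest p were Ndufb8, Manf, Upp1, Polr3g, and Oaz1-ps. Ndufb8, a complex I subunit, differed between hypoxia-program and low-score cells by -1.29 and -0.97 in the B16 tumors, by -2.34 and -0.34 in the B16PD1 tumors, and by 1.61 and 0.86 in the R499 tumors. The R499 tumors thus went the other way, but the contrast of R499 minus B16, 2.37, had an adjusted p of 0.860, and that of R499 minus B16PD1, 2.57, had 0.747. Manf, a secreted factor of the ER stress response, stood at -2.82 and -2.36 in B16 and at -0.47 and 1.32 in R499, with an adjusted p of 0.860. In B16PD1 minus B16 the 5 smallest p-values were those of Sept2, Lmo1, Rps28, Rpl23a, and Top2b, and in R499 minus B16PD1 those of Ndufb8, Nudt14, Cenpl, Phf21a, and Tcaf1, with adjusted p-values of at least 0.747.

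Within the hypoxia-program cells alone, a few genes differed in level between conditions, none of them a HIF target or glycolytic gene of the lists. These levels are not adjusted for genes detected. For B16PD1 minus B16, limma called 0 genes, with 444 at an unadjusted p under 0.05. For R499 minus B16 it called 5 genes (0.0526%), with 664 at that level, and for R499 minus B16PD1 3 genes (0.0316%), with 570. Upp1, uridine phosphorylase, had a mean log2(TPM + 1) of 0 in the hypoxia-program cells of B16007, B16008, and B16PD1000, 0.35 in B16PD1002, 2.02 in R499015, and 1.48 in R499016. It differed by 1.75 in R499 minus B16 (adjusted p = 0.00293, higher in both R499 tumors) and by 1.58 in R499 minus B16PD1 (0.0126). In low-score cells of the R499 tumors its means were 0.53 and 0.35. Cops9, a subunit of the COP9 signalosome, stood at 7.95 and 7.82 in B16 and at 10.31 and 10.18 in R499, a difference of 2.36 (0.00642, both R499 tumors higher), with low-score cells at 7.80 and 7.69 in B16 and at 8.04 and 8.88 in R499. The ubiquitin gene Ubb differed by -0.98 (0.00143) in R499 minus B16, lower in both R499 tumors, and its low-score cells stood at 14.14 and 14.27 in R499 and at 14.74 and 14.65 in B16.

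Kalrn, a guanine nucleotide exchange factor, was listed at 0 in the hypoxia-program cells of all B16 and B16PD1 tumors and stood at 2.18 in R499015 and 3.33 in R499016 (adjusted p = 0.00293 against B16 and 0.00611 against B16PD1). Its low-score cells in the R499 tumors had means of 1.43 and 3.26, so the level was not particular to the hypoxia-program cells. Pmel had a mean of 10.92 over the B16PD1 tumors and of 12.12 over the R499 tumors, a difference of 1.19 (0.00611, both R499 tumors higher), and its low-score cells stood at 11.98 and 11.96 in R499 and at 11.48 and 11.27 in B16PD1. The counts of 5 and 3 were both 0 with genes detected in more than 5 cells kept and with limma without a trend. That of R499 minus B16 was 0 without B16008 and 1 without R499015. That of R499 minus B16PD1 was 0 without B16PD1000 or B16PD1002, 1 without R499015 or R499016, and 6 without cells carrying markers of another type.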

How the data were processed

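Single cells of 6 tumors were sequenced as full-length libraries on the ICELL8 system. The authors deposited TPM for 25215 genes in 602 cells. STAR, RSEM, and mm10 are named in the submitters' processing notes, and their versions are not given in the sources used here. TPM keeps no read counts, so how deeply a cell was sequenced is unknown and the authors' minimum of mapped reads was not applied. Kept cells had a median of 3547 genes detected. Cell names carry a condition and a tumor number, which placed each tumor in its condition. Doublets were not called.

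Values were transformed to log2(TPM + 1), that is with a pseudocount of 1, and genes with TPM above 0 in under 5% of kept cells were left out. Within each tumor, each gene was regressed on membership and on the number of genes detected, the scored genes not counted. The 6 coefficients of a gene were tested against 0 with limma 3.58.1 in R 4.3.3 (eBayes with a trend, two-sided, Benjamini-Hochberg adjustment over all genes tested, threshold 0.05). Contrasts between conditions were fitted to the same coefficients, or to means over hypoxia-program cells, with all tumors sharing the variance. All adjusted p-values are from these limma fits, and all counts of tumors are tumors with a positive difference unless stated. Single values were tested by exact permutation. Other work, permutation tests included, was done in Python 3.11.15, with matplotlib 3.10.9 for the figures and pandas 2.3.3 and numpy 2.4.6 for the tables. Simulated data served to test the steps. For positions, 25103 gene IDs matched GENCODE M21 on GRCm38 and 112 did not.

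The members and lists were chosen with earlier results of these data known. Genes are named by a rule: the scored genes, the 10 largest increases and 10 largest decreases past the threshold with 1 sign in 6 of 6 tumors, the HIF target, glycolysis, and HIF pathway genes past the threshold, the 3 most abundant genes of each other list and those past the threshold (up to 5 by p), and the 5 smallest p-values of each contrast between conditions. Alternatives were other filters on genes and cells, pseudocounts of 0.1 and 10, no term or other forms of the term for genes detected, matching, selection on the regressed score, subtraction of the mean of each cell, mitochondrial share or cell cycle means as terms, other shares of cells, leaving out cells with markers of another type, limma without a trend, and leaving out each tumor.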

Additional observations from a re-analysis of the deposited data

Results flagged for a closer look

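Of 134 results tested for 1 tumor far from the other 5, 10 stood out, where chance gives about 1 in 20. In each, the gap to the nearest tumor took up more than the Dixon limit for 6 values, and all values are differences of hypoxia-program minus low-score cells in log2(TPM + 1), allowing for genes detected. In R499015, Gbe1 stood low at 0.81 (others 2.27 to 2.77), while Gabarapl1 stood high at 2.93 (0.74 to 1.43) and so did Rps27 at 1.53 (0.28 to 0.53). In B16007, Pfkl stood low at 0.48 (others 1.38 to 1.83) and Gtse1 nearer to 0 at -0.33 (-1.55 to -1.16). In B16PD1000, Tyrp1 was at -0.85 (others 0.06 to 0.49), Ifi27 at -2.12 (0.10 to 0.82), and Mt2 at 0.61 (1.52 to 2.04). Rpl32 was at -0.13 in B16008 (others 0.13 to 0.23), and Tet2 at 1.495 in R499016 (0.58 to 0.91). Leaving aside the genes named for their contrasts between conditions, in 13 pairs of a named gene and a contrast all tumors of 1 condition had a sign opposite to that of all tumors of the other, and no such contrast passed limma.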

How the results depend on the processing

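Of comparisons with counts or tests, 239 values under 23 alternatives stayed on the same side of the threshold, or within 1.5 times for a count. Of the others, 17 no longer passed the threshold, 37 counts moved further, and 7 values changed sign. Of values of single genes, 2543 kept their sign and their call or lack of 1, 270 lost a call, 30 gained 1, and 72 changed sign. For values that changed, the cause was not tested. Without the term for genes detected, 2868 genes were higher and 9 lower, 34 HIF targets were higher, and mt-Co3 (0.33), Uqcrq (0.76), Ndufa5 (0.33), and Lgals3bp (1.01) turned positive. Matching on genes detected gave 176 higher and 17 lower and 1 gene each in the differences of R499 minus B16 and R499 minus B16PD1. With the score regressed on genes detected, 58 were lower, 1 gene passed in the differences of R499 minus B16, and hypoxia-program cells differed by 295.4 genes detected (p = 0.156) and 0.141 percentage points of mitochondrial share (p = 0.75, exact sign-flip tests). Cell cycle terms gave 70 higher and 11 lower, the bottom 25% of cells 51 and 11 with 9 glycolytic genes, and limma without a trend 63 and 17 with 5 glycolytic genes. The filter of more than 5 cells gave 17 lower, and under it and without a trend 0 genes passed between levels in R499 minus B16 and R499 minus B16PD1. Without cells with markers of another type, 6 genes passed in levels of R499 minus B16PD1 and the mitochondrial share differed by 0.810 points (exact p = 0.0625). With the top 10% of cells, it differed by 0.684 (exact p = 0.125) and 1 gene passed in the differences of R499 minus B16PD1. Under 5% mitochondrial TPM, genes detected differed by 1115 (exact p = 0.0625), and the score by -0.067 in B16PD1 minus B16 and 0.096 in R499 minus B16PD1. With over 2000 genes, the latter was 0.036 and genes detected differed by 861. Mitochondrial share differed by 0.538 percentage points under either of these filters (exact sign-flip p = 0.03125 each). Leaving out each tumor gave 68 to 89 higher, 16 to 26 lower, 15 to 19 HIF targets, 8 to 13 glycolytic genes, and 6 to 7 scored genes. Differences passed for 0 to 1 genes in B16PD1 minus B16, 0 in R499 minus B16, and 0 to 1 in R499 minus B16PD1, and levels for 0 to 1, 0 to 7, and 0 to 3. Genes detected differed by 1229 to 1423 and mitochondrial share by 0.654 to 1.02, all at an exact p of 0.0625, the smallest for 5 tumors, and no longer past the threshold. Scores differed by -0.089 to 0.246, -0.120 to 0.215, and -0.114 to 0.053 in the 3 contrasts. Levels within hypoxia-program cells use neither low-score cells nor the term, and the mean score over all cells uses no selection, so alternatives planned for them on those choices leave them as they are and were not run. For these levels, the other filters on genes and cells, pseudocounts, shares of cells, added terms, and the regressed score were neither planned nor run. Fits without a tumor leave a condition with 1 tumor, assumed to vary like the others. No paired analysis was possible because the cell columns carry no replicate numbers of the labels by which to pair tumors across conditions. Hypoxia-program and low-score cells were compared within each tumor throughout. TPM without counts gives no counting error for a value, a gene at TPM of 0 may be missed and not absent, and score, genes detected, and mitochondrial share move together, so the term for genes detected may remove part of a real difference or leave part of a technical one. Doublets were not called. Oxygen and position in the tumor were not measured.

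The other single genes that changed sign had no call in either fit, and their differences in log2(TPM + 1) are given in parentheses. Without the term these were Angpt2 (0.048), Vegfb (0.068), Map1lc3b (0.40), Canx (0.40), Atp5b (0.043), Uqcr10 (0.040), Tubb4b (0.56), Dct (0.064), Bst2 (0.29), Ccng1 (0.60), Fcer1g (0.080), Epas1 (0.090), and Ldhb (0.17). Matching turned Canx (0.041), mt-Co3 (0.029), Tubb4b (0.029), Dct (0.033), and Lgals3bp (0.27), and the regressed score turned Canx (0.22), Uqcr10 (0.11), Ifi27 (-0.11), and Rpl41 (0.073). Cell cycle terms turned mt-Co2 (-0.017), Rrm2 (0.00588), Tubb4b (0.18), Ifi27 (-0.22), B2m (-0.022), and Epas1 (0.00817). The bottom 25% turned Gabarap (-0.037), Canx (0.18), Ifi27 (-0.074), and Epas1 (0.16), and the top 10% mt-Co2 (-0.00274), Ifi27 (-0.20), B2m (-0.39), and Ccng1 (0.071). The filter of over 2000 genes turned mt-Co3 (0.046), Anp32e (-0.021), and Ifi27 (-0.062), and that of under 5% mitochondrial TPM mt-Co3 (0.012) and Uqcrq (0.0026). Single turns were mt-Co3 (0.024) with the squared term, mt-Co3 (0.00981) with cell means subtracted, Ifi27 (-0.041) with mitochondrial share as a term, Ifi27 (-0.036) with a pseudocount of 0.1, and Epas1 (0.030) with 10. Leaving out each tumor gave ranges across 0 for Gabarap -0.100 to 0.35, Canx -0.086 to 0.079, mt-Atp6 -0.014 to 0.15, mt-Co3 -0.078 to 0.058, mt-Co2 -0.019 to 0.17, Uqcrq -0.15 to 0.099, Anp32e -0.15 to 0.26, Dct -0.074 to 0.019, Ifi27 -0.12 to 0.46, B2m -0.047 to 0.19, Fcer1g -0.19 to 0.014, and Epas1 -0.18 to 0.077. Ranges on 1 side of 0 that reach over 1.5 times above or below the value with all tumors, again without a call, were Egln3 0.22 to 0.54, Angpt2 -0.58 to -0.21, Vegfb -0.45 to -0.10, Map1lc3b -0.40 to -0.13, Hspa5 -0.54 to -0.28, Calr -0.59 to -0.20, Asns 0.18 to 0.38, Atp5b -0.12 to -0.00857, Uqcr10 -0.26 to -0.087, Rrm1 -1.03 to -0.51, Jpt1 -1.25 to -0.53, Tubb4b -0.36 to -0.00944, Tyrp1 0.060 to 0.33, Pmel -0.23 to -0.098, Lgals3bp -0.47 to -0.086, Bst2 -1.06 to -0.43, Bax 0.21 to 0.70, Ccng1 -0.49 to -0.13, Rps18 0.050 to 0.14, Rpl41 -0.14 to -0.074, Cd68 0.22 to 0.59, Hif1a 0.33 to 0.69, Arnt 0.45 to 0.94, and Pgm1 0.12 to 0.59 (Egln3 with the other 7 genes as the score).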

Other observations

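The genes in this part were chosen after their values were seen, among those that limma called, and their values are differences of hypoxia-program minus low-score cells as in the report. The metallothioneins bind zinc and copper. Mt1 ran from 12.28 through a median of 12.52 to 12.80 in hypoxia-program cells and from 11.41 through 11.75 to 11.93 in low-score cells, a difference of 0.79 (adjusted p = 9.23e-05, 6 of 6 tumors). Mt2 differed by 1.56 (0.000237, 6 of 6). Other genes picked singly act in adhesion or the actin cytoskeleton, without a list or count behind them. Lgals3, galectin-3, had a difference of 1.92 (7.58e-05, 6 of 6). Vcl, the focal adhesion protein vinculin, ran from 2.17 through 2.57 to 2.78 and from 0.63 through 0.71 to 1.02, a difference of 1.59 (0.000521, 6 of 6). Its partner Zyx, zyxin, differed by 1.49 (0.0147, 6 of 6). Of contractile and actin-binding proteins, Myl9 differed by 1.67 (0.00925, 6 of 6), Cnn2 by 1.25 (0.0334, 6 of 6), Csrp1 by 1.15 (0.0318, 6 of 6), Tpm4 by 1.10 (0.0158, 6 of 6), and the cytoplasmic actin gene Actg1 by 0.65 (2.59e-05, 6 of 6). None of these genes had overlapping tumor means, and Mt2, Lgals3, and Vcl passed in all of 23 other settings.

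Further genes, also picked singly without a list or count behind them, touched metabolism, chromatin, and growth control. Ugp2, which makes the UDP-glucose used by glycogen synthase, differed by 0.91 (0.018, 6 of 6 tumors), and Bsg, the chaperone that brings lactate transporters to the membrane, by 0.97 (0.000729, 6 of 6). The sparse genes Tet2, Kdm7a, and Tet1 encode oxygen-dependent dioxygenases of DNA or histones. Tet2 differed by 0.89 (0.0111, 6 of 6), Kdm7a by 0.80 (0.0474, 6 of 6), and Tet1 by 0.73 (0.0478, 5 of 6). Inhibitors of the cell cycle beside Cdkn1a were Cdkn1b (p27), with a difference of 1.54 (0.0422, 6 of 6), and Rb1, with 0.49 (0.0334, 6 of 6), the latter detected in 18.8% of hypoxia-program cells and 3.14% of low-score cells. Of receptors of the TNF family, Tnfrsf9 (4-1BB), known mainly from activated T cells, was detected in 39.1% and 9.02% of cells and differed by 1.55 (0.000815, 6 of 6), while Cd3d, Cd8a, Nkg7, and Gzmb were at 0 in every kept cell. Tnfrsf12a, the receptor of TWEAK, differed by 1.54 (0.00925, 6 of 6). Tnfrsf9 and Bsg passed in all of 23 other settings, whereas Kdm7a passed in 9, Cdkn1b in 10, and Csrp1 and Cnn2 in 11 of 23, and Tet1 in 10 and Rb1 in 11 of 22.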
